A study of Marmota monax with 7 samples.

Results

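GAPDH, LDHA, ACTB and VIM are 4 genes grouped here as reference genes for scaling expression data. They were taken from the 3011 genes that the annotation of a human membrane array names by a single symbol. Of the 5544 probes on the array, 8 carried one of these symbols and no other. GAPDH had 2 such probes, LDHA had 3, ACTB had 2 and VIM had 1, and all 8 were kept. Each array had been hybridised with total RNA from normal adult liver of the woodchuck (Marmota monax, a ground squirrel), at 0.1, 0.25, 0.5, 1, 2, 5 or 10 µg, with 1 array per amount and 7 arrays in all. No treatment, genotype or animal is named in the labels, all arrays carry the same lot number, and nothing says that the arrays held separate preparations. P-values below therefore reflect only scatter among the 7 arrays, which may be technical, and no pair of amounts could be tested. In the limma fits that scatter is distance from a fitted line. There the variance of each probe or pair was also drawn towards that of all others fitted with it. The number of arrays limits the precision.

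GAPDH is a glycolytic enzyme that oxidises glyceraldehyde-3-phosphate, and LDHA is the subunit of lactate dehydrogenase that interconverts pyruvate and lactate. ACTB, beta-actin, forms the filaments of the cell cortex, and VIM, vimentin, is the intermediate filament protein of mesenchymal cells, found in liver mainly in stellate, endothelial and Kupffer cells rather than in hepatocytes. A reference gene is used to scale samples on the premise that its signal follows the amount of RNA loaded in the same way as the signals of the genes that it corrects. A dilution series of RNA shows whether a probe does so. Actin genes in particular have close relatives of very similar sequence, and the part of such relatives in the signal of a probe was not tested.

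The probes fell into a bright set, with 1 probe of each gene, and a dim set, with the other probes of GAPDH, LDHA and ACTB. Signals are given as deposited, in units of the scanner, and a probe is named by its number on the array. The background of an array was taken as the 1st percentile of its signals, which ran from 1329 at 0.1 µg to 3781.86 at 5 µg and was 3549.86 at 10 µg. The array median ran from 1629 at 0.1 µg to 16520 at 5 µg. Summed signal per array ran from 12951278 to 1309231092. The labelled tissue was checked against 7 hepatocyte markers, of which 3 were measured. At 10 µg the probe of APOB, the protein of very-low-density lipoprotein, read 6312172, the CYP2E1 probe (a cytochrome P450 of hepatocytes) 495678, and the TF probe (transferrin) 9140.

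GAPDH probe 842 read 12442, 27197, 66885, 145430, 346995, 2216516 and 3491303 from 0.1 to 10 µg. Its signal was higher on each array than on the one before, and between the end amounts it differed 281-fold for a 100-fold difference in RNA. GAPDH probe 3922, which the annotation assigns to the same sequence accession, read 1660, 1758, 3098, 3469, 4447, 26706 and 25608. It stood within 1.5 times the background on 2 arrays and differed 15.4-fold between the end amounts.

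LDHA probe 1453 read 11516, 21449, 74194, 156011, 393455, 3520468 and 4041089, higher on each array than on the one before, with a 351-fold difference between the ends. The other LDHA probes share an accession that differs from that of probe 1453. LDHA probe 2752 read 1613, 1674, 1753, 2299, 3071, 10035 and 4456, and LDHA probe 5217 read 1788, 1644, 2234, 1779, 2780, 4681 and 5944. Each of these 2 probes lay within 1.5 times the background on 6 of the 7 arrays. The signal of probe 2752 stood out at 5 µg, and probe 5217 read below the 1st percentile at 1 µg.

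ACTB probe 5221 read 3295, 4629, 13024, 20229, 78017, 723806 and 654221, the last of these below the value at 5 µg, and differed 199-fold between the ends. ACTB probe 2756, of the same accession, read 1550, 1797, 2633, 4786, 6855, 27663 and 19259, and differed 12.4-fold. It stood within 1.5 times the background on 2 arrays. VIM probe 1147 read 1899, 3539, 6168, 12733, 31099, 179991 and 207558, and differed 109-fold. It began near the background, at 1.43 times the 1st percentile at 0.1 µg, and was higher on each array than on the one before.

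**Figure D1:**
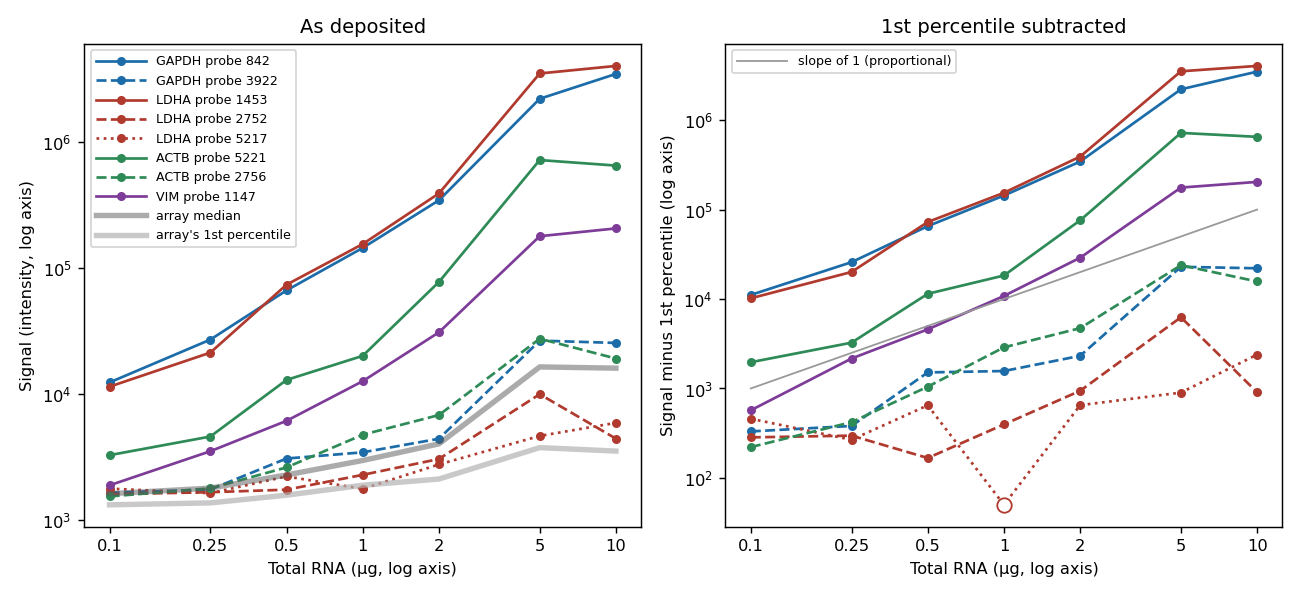
Signal of each of the 8 probes against the amount of total RNA, both on log axes, as deposited (left, with the array median and 1st percentile) and after subtraction of each array's 1st percentile (right, with a line of slope 1). Solid lines are the brightest probe of each gene, broken lines the others, and the open circle marks LDHA probe 5217 at 1 µg, set to the floor of 50. The dim LDHA probes stay close to the 1st percentile, while GAPDH probe 842 and LDHA probe 1453 reach 3491303 and 4041089 at 10 µg.

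The bright probes of GAPDH, LDHA and ACTB hardly moved in place on their arrays with the amount, and that of VIM moved more. GAPDH probe 842 lay between percentiles 97.1 and 98.2 of all probes of the array, LDHA probe 1453 between 97.4 and 98.4, and ACTB probe 5221 between 92.0 and 93.9. VIM probe 1147 lay at percentile 80.4 at 0.1 µg and between 89.2 and 91.1 on the other 6 arrays. The dim probes moved over wider ranges. GAPDH probe 3922 lay between percentiles 43.7 and 79.6, ACTB probe 2756 between 33.8 and 77.8, LDHA probe 2752 between 4.71 and 46.9 and LDHA probe 5217 between 0.198 and 72.3. For comparison, the median distance between the highest and lowest percentile of a probe was 41.6 over all 5544 probes and 1.23 over the brightest 10%.

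**Figure D2:**
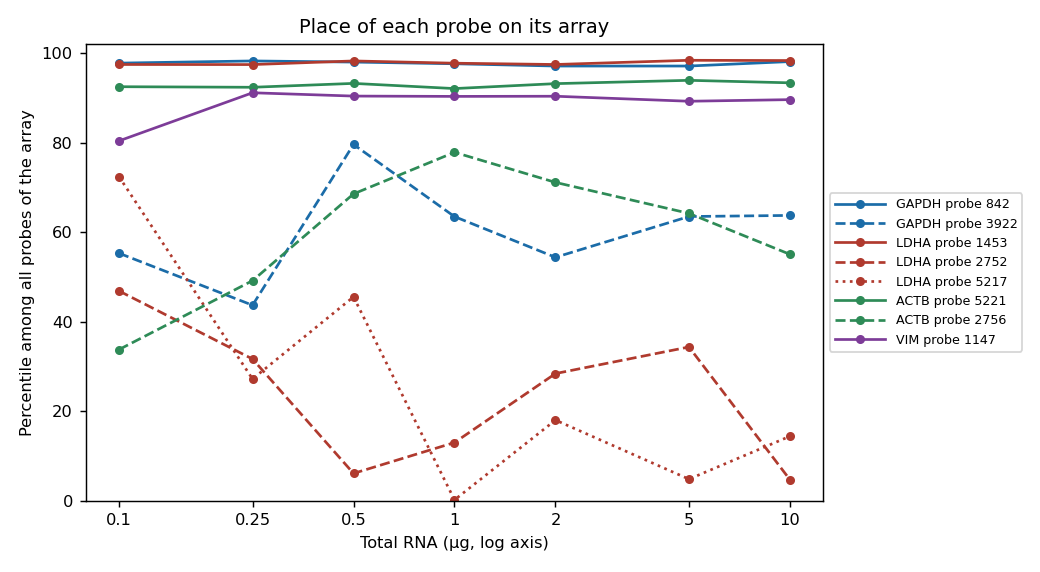
Percentile of each of the 8 probes among the 5544 probes of its array (vertical axis) against the amount of total RNA (log axis). The brightest probes of GAPDH, LDHA and ACTB stay above percentile 92 on all 7 arrays, and the 2 dim LDHA probes fall below percentile 15 at 10 µg.

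All 8 probes rose with the amount of RNA when arrays were not scaled (limma, Benjamini-Hochberg adjusted p at most 0.00443), as did 99.9% of all 5544 probes, so the direction is not particular to these genes. A slope is given as the change in log2 signal per doubling of RNA with its limma standard error over 7 arrays. A slope of 1 is signal in proportion to RNA. The slope was 1.39 ± 0.09 for LDHA probe 1453, 1.31 ± 0.11 for ACTB probe 5221, 1.29 ± 0.08 for GAPDH probe 842 and 1.11 ± 0.09 for VIM probe 1147. It was 0.67 ± 0.10 for GAPDH probe 3922, 0.66 ± 0.09 for ACTB probe 2756, 0.34 ± 0.09 for LDHA probe 2752 and 0.28 ± 0.08 for LDHA probe 5217, around the median of 0.57 over all probes. The call for LDHA probe 5217 was lost without the 10 µg array (slope 0.23, limma adjusted p = 0.0560) and without both 5 and 10 µg (slope 0.13, limma adjusted p = 0.128). Pearson's r between log2 signal and log2 amount ran from 0.837 to 0.993 over the 8 probes, with exact two-sided permutation p between 0.000198, the smallest that 5040 pairings can give, and 0.0123. Spearman's rho ran from 0.821 to 1, with exact permutation p from 0.000397 to 0.0341, and without the arrays of 0.1 and 10 µg r was at least 0.891.

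Set against a slope of 1, bright and dim probes of GAPDH, LDHA and ACTB fell on opposite sides. Bright probes were picked by their mean log2 signal on these same arrays, so this split was in part set beforehand. A share among probes of like brightness was not computed. Slopes of 3 probes were above 1 (LDHA probe 1453, ACTB probe 5221 and GAPDH probe 842, with limma adjusted p of 0.00243, 0.0247 and 0.00652), beside 6.89% of all probes. Slopes of the 4 dim probes were below 1 (limma adjusted p at most 0.00920), beside 70.5% of all probes, and that of VIM probe 1147 passed in neither direction (limma adjusted p = 0.256). Without both 5 and 10 µg only LDHA probe 1453 stayed above 1, while GAPDH probe 842 exceeded 1 by 0.12 (limma adjusted p = 0.115) and ACTB probe 5221 by 0.04 (limma adjusted p = 0.664). ACTB probe 5221 also lost its call without the 0.25 µg array (excess 0.28, limma adjusted p = 0.0683). Among the dim probes, GAPDH probe 3922 lost its call without 0.1 µg (limma adjusted p = 0.124), and ACTB probe 2756 without 0.1 µg or without 10 µg (limma adjusted p = 0.0511 and 0.0527).

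Subtraction of the background moved the dim probes of GAPDH and ACTB to a slope near 1. With the 1st percentile of each array taken off, and values under 50 set to 50, the slope was 1.01 ± 0.14 for GAPDH probe 3922 and 1.06 ± 0.12 for ACTB probe 2756. That of VIM probe 1147 became 1.34 ± 0.11, beside 1.42 ± 0.14 for ACTB probe 5221, 1.42 ± 0.12 for LDHA probe 1453 and 1.31 ± 0.11 for GAPDH probe 842. Without 5 and 10 µg the subtracted slope was 0.72 for GAPDH probe 3922 and 1.09 for ACTB probe 2756. Over all probes the median slope after subtraction was 0.97, so a slope near 1 is not particular to these dim probes. The fold between 0.1 and 10 µg was then 314 for GAPDH probe 842 and 66.6 for probe 3922, 331 for ACTB probe 5221 and 71.1 for probe 2756, 396 for LDHA probe 1453 and 358 for VIM probe 1147. LDHA probes 2752 and 5217 stayed flatter, at 0.54 ± 0.19 and 0.35 ± 0.22, the latter with 1 of 7 arrays at the floor.

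After subtraction 7 of the 8 probes rose (limma, adjusted p at most 0.0178), beside 92.9% of all probes, and LDHA probe 5217 did not pass (limma adjusted p = 0.152). It passed without the 1 µg array (slope 0.35, limma adjusted p = 0.0317), with the lowest signal subtracted (0.45, limma adjusted p = 0.0142) and with a floor of 200 (0.35, limma adjusted p = 0.0343). Its slope was 0.13 without 10 µg, -0.14 without both 5 and 10 µg and 0.04 with the 5th percentile subtracted (limma adjusted p = 0.642, 0.738 and 0.904). LDHA probe 2752 lost its call when the 5th percentile was subtracted instead (slope 0.22, limma adjusted p = 0.564) and without 5 and 10 µg (slope 0.35, limma adjusted p = 0.174). Nor did LDHA probe 2752 pass after subtraction by exact permutation of Pearson's r (r = 0.728, exact permutation p = 0.0577). None of the 8 differed from a slope of 1 by limma after adjustment, beside 0.144% of all probes above and 6.17% below. At an unadjusted p under 0.05, 4 were above 1 and 2 below. The 95% intervals of the slope were 1.06 to 1.57 for GAPDH probe 842, 1.14 to 1.69 for LDHA probe 1453, 1.11 to 1.73 for ACTB probe 5221 and 1.08 to 1.59 for VIM probe 1147. These 4 were called above 1 when the lowest signal of the array was subtracted in place of the 1st percentile, with limma adjusted p from 0.0261 to 0.0495. The share of all probes called in that setting was not computed, so the shares above do not apply to it.

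**Figure D3:**
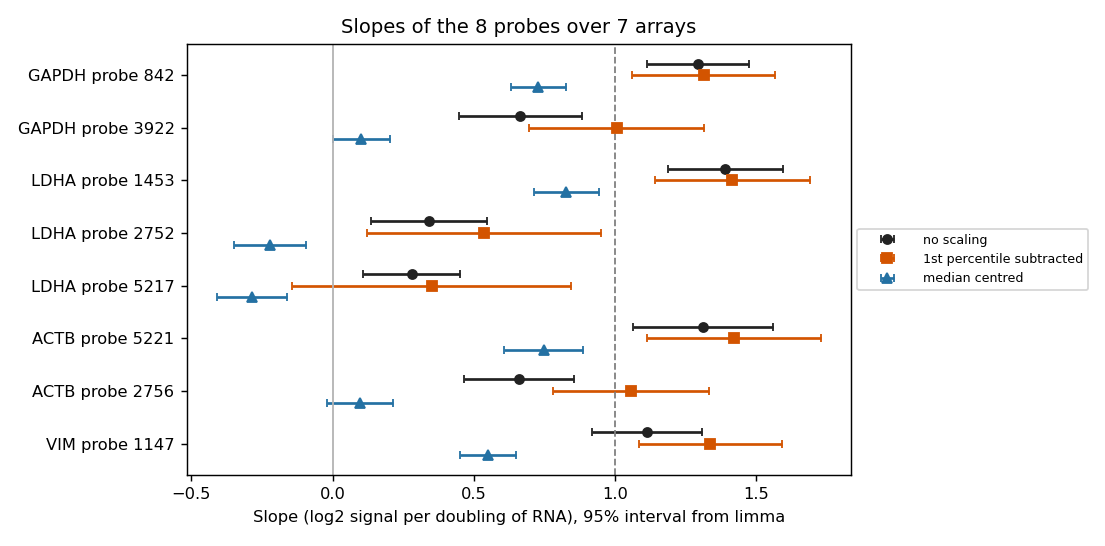
Slope of log2 signal per doubling of RNA (horizontal axis) for each of the 8 probes, over 7 arrays, without scaling (circles), after subtraction of the 1st percentile (squares) and relative to the array median (triangles); bars are 95% intervals from limma, and the broken line marks a slope of 1. Subtraction moves GAPDH probe 3922 from 0.67 to 1.01 and ACTB probe 2756 from 0.66 to 1.06, and hardly moves GAPDH probe 842.

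The signal was not a straight line in the amount. From 2 to 5 µg, a 2.5-fold step in RNA, GAPDH probe 842 rose 6.39-fold, LDHA probe 1453 8.95-fold, ACTB probe 5221 9.28-fold and VIM probe 1147 5.79-fold, and the median step of all probes was 3.54-fold. From 5 to 10 µg, a step of 2-fold in RNA, the same probes differed 1.58-fold, 1.15-fold, 0.904-fold and 1.15-fold, beside a median of 1.07-fold. Between 0.1 and 2 µg they differed 27.9-fold, 34.2-fold, 23.7-fold and 16.4-fold. Steps between single arrays have no replicate check.

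Probes of the same gene did not keep their ratio across the dilution series as deposited. GAPDH probe 842 read 7.50, 15.5, 21.6, 41.9, 78.0, 83.0 and 136 times GAPDH probe 3922 from 0.1 to 10 µg, so the ratio was larger at each larger amount. ACTB probe 5221 read 2.13, 2.58, 4.95, 4.23, 11.4, 26.2 and 34.0 times ACTB probe 2756. LDHA probe 1453 read 7.14 times LDHA probe 2752 at 0.1 µg and 907 times at 10 µg, and 6.44 and 680 times LDHA probe 5217. The divisor in these LDHA ratios lay within 1.5 times the background on 6 of 7 arrays. LDHA probes 2752 and 5217 stayed between ratios of 0.750 and 2.14 to each other.

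The log2 ratio of the brighter to the dimmer probe was fitted against log2 amount for all 392 pairs of probes with the same symbol. It rose in 4 of the 5 pairs of the reference genes and in 56.9% of all pairs (limma, Benjamini-Hochberg over the 392 pairs). Because a pair was ordered by brightness on the same arrays, its sign was in part set beforehand. The slope of the ratio was 1.11 ± 0.08 for LDHA probes 1453 and 5217, the steepest of all pairs, and 1.05 ± 0.06 for LDHA probes 1453 and 2752. It was 0.65 ± 0.07 for ACTB and 0.63 ± 0.07 for GAPDH, beside a median of 0.25 over all pairs, and none of these 4 had a limma adjusted p above 1.78e-05. The pair of LDHA probes 2752 and 5217 did not pass (0.06 ± 0.08, limma adjusted p = 0.539).

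With the 1st percentile subtracted, the ratio of the GAPDH probes ran from 33.6 at 0.1 µg to 158 at 10 µg and that of the ACTB probes from 8.90 to 41.4, with a lowest value of 6.36 at 1 µg. The slopes of these ratios fell to 0.31 ± 0.13 (limma adjusted p = 0.133) and 0.37 ± 0.14 (limma adjusted p = 0.108), and neither passed the test. With the lowest signal of the array subtracted both passed (limma adjusted p = 0.0374 and 0.0219). Under subtraction of the 1st percentile, only the pairs of LDHA probe 1453 with probes 2752 and 5217 passed, beside 17.6% of all pairs. Their slopes were 0.88 ± 0.17 (limma adjusted p = 0.0173) and 1.06 ± 0.23 (limma adjusted p = 0.0208). Both of these calls were lost without 0.1 µg (limma adjusted p = 0.0618 and 0.0946), without 10 µg (limma adjusted p = 0.0745 and 0.0522) and without both 5 and 10 µg (limma adjusted p = 0.133 for each). The first was also lost with the 5th percentile subtracted (0.0507), and the second with a floor of 1 (0.255). The ratios after subtraction rest on small differences where the dim probe is near the background, as for GAPDH probe 3922 at 0.1 µg, which read 1.25 times the 1st percentile.

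**Figure D4:**
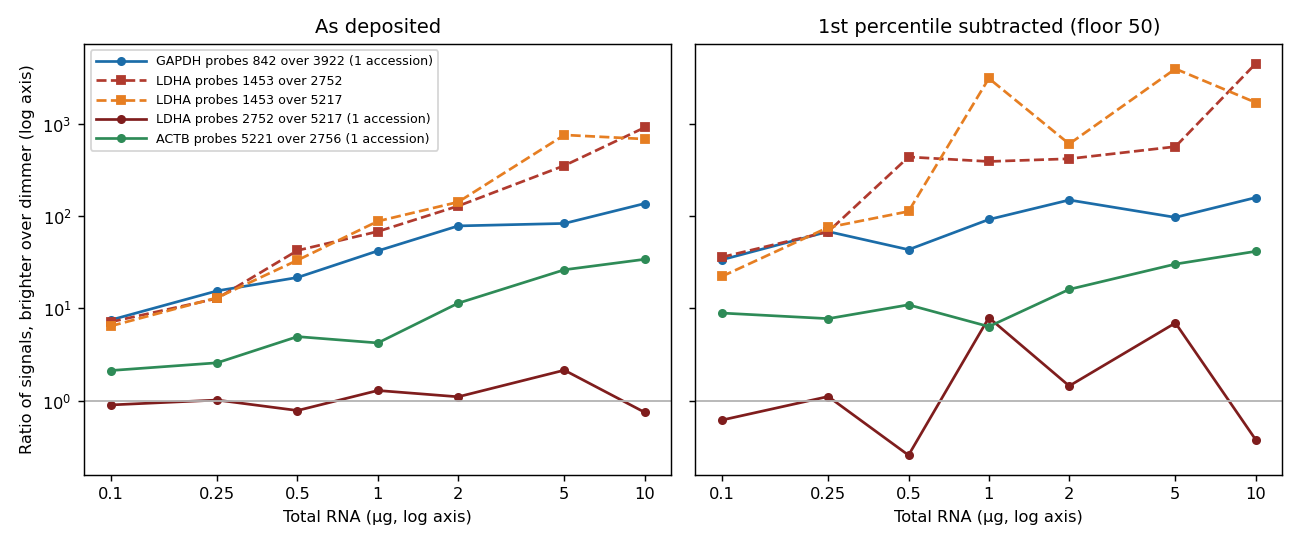
Ratio of the brighter to the dimmer probe of the same gene (log axis) on each of the 7 arrays against the amount of total RNA (log axis), as deposited (left) and after subtraction of the 1st percentile (right). Circles with solid lines are pairs that share a sequence accession and squares with broken lines pairs that do not. On the left the GAPDH ratio goes from 7.50 to 136 and the ACTB ratio from 2.13 to 34.0, and on the right they go from 33.6 to 158 and from 8.90 to 41.4.

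The annotation places probes of the same accession in repeated runs. Of 117 pairs of probes that share an accession, 42 stood at a distance in probe number shared by at least 4 pairs. GAPDH probes 842 and 3922 stood 3080 numbers apart, a distance shared by 12 pairs, and in both places the next number is named EIF4A1, an RNA helicase of translation initiation. The EIF4A1 probe next to GAPDH probe 842 read 4193860 at 10 µg and the one next to probe 3922 read 27145. The other 4 names of this run were less far apart at 10 µg. PSMD2, a proteasome subunit, GYG2, a glycogenin, and H2BC21, a histone, read 2.29, 1.89 and 1.52 times as high at the lower number, and TMEM50A 0.818 times. ACTB and the dim LDHA pair stood 2465 numbers apart, a distance shared by 8 pairs, in which ACTB read 654221 at the higher number and 19259 at the lower. In that run CCT3, a chaperonin subunit, read 322052 at the higher number and 6820 at the lower, SYK, a tyrosine kinase, read 20307 and 7044, and LDHA read 5944 and 4456. UROS, a haem synthesis enzyme, was brighter at the lower number (13553 against 6579), as was PDIA3 (62350 against 49587). DHPS read 15875 at the higher number and 14108 at the lower, and SOD1 read 9384 and 4987. These neighbours were chosen after their values were seen. Over all 117 pairs the probes of a pair differed by a median of 2.98-fold at 10 µg, and 24 pairs differed by over 10-fold, among them GAPDH and ACTB. Which of 2 such probes carries the named sequence was not tested, and a signal below is that of a numbered probe.

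Between genes, the bright probes kept their ratios within a narrower span than the bright and dim probes of the same gene did. Ratios between different probes are read here only for how they changed, not as relative amounts of transcript. LDHA probe 1453 over GAPDH probe 842 was 0.926, 0.789, 1.11, 1.07, 1.13, 1.59 and 1.16 from 0.1 to 10 µg, a 2.01-fold span. The ratio of LDHA to ACTB spanned 2.21-fold, that of GAPDH to ACTB 2.35-fold, GAPDH to VIM 2.57-fold, ACTB to VIM 3.07-fold and LDHA to VIM 3.23-fold. The slope of the ratio was -0.02 ± 0.08 for GAPDH over ACTB, 0.08 ± 0.06 for LDHA over ACTB and 0.10 ± 0.04 for LDHA over GAPDH. For the 3 ratios over VIM it was 0.18 ± 0.03 with GAPDH, 0.20 ± 0.06 with ACTB and 0.28 ± 0.04 with LDHA (ordinary regression, SE over 7 arrays, 6 ratios computed and none tested).

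Over all arrays, the slopes over VIM were nearer to level after subtraction of the 1st percentile. They became -0.02 ± 0.05 with GAPDH, 0.08 ± 0.09 with ACTB and 0.08 ± 0.06 with LDHA. That of GAPDH over ACTB moved from -0.02 to -0.11 ± 0.08. The spans over VIM then were 1.64-fold with GAPDH, 2.72-fold with ACTB and 2.15-fold with LDHA, while GAPDH over ACTB spanned 2.58-fold. The array of 5 µg gave the lowest ratio of GAPDH to ACTB, 3.06, and the highest ratio of LDHA to GAPDH, 1.59.

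Relative to the array median, the bright probes rose and the dim LDHA probes fell. The median-centred slope was 0.83 ± 0.05 for LDHA probe 1453, 0.75 ± 0.06 for ACTB probe 5221, 0.73 ± 0.04 for GAPDH probe 842 and 0.55 ± 0.05 for VIM probe 1147 (limma adjusted p at most 2.54e-06), 4 rises of 8 beside 33.9% of all probes. It was -0.22 ± 0.06 for LDHA probe 2752 and -0.28 ± 0.06 for LDHA probe 5217 (limma adjusted p = 0.00677 and 0.00156), 2 falls of 8 beside 30.9% of all probes. GAPDH probe 3922 (0.10 ± 0.05, limma adjusted p = 0.0707) and ACTB probe 2756 (0.10 ± 0.05, limma adjusted p = 0.126) did not pass. LDHA thus had a rising and 2 falling probes. The 4 rising probes were picked as the brightest of each gene, and the shares cover probes of all brightness. A share among probes of like brightness was not computed. At 0.1 µg the array median, 1629, was itself near the 1st percentile, 1329. The fall of LDHA probe 2752 was lost without 10 µg (-0.12, limma adjusted p = 0.0769) and without both 5 and 10 µg (-0.10, limma adjusted p = 0.188), and ACTB probe 2756 passed as a rise without 10 µg (0.18, limma adjusted p = 0.0218) and without both (0.22, limma adjusted p = 0.00828). Centred on the 75th percentile 4 rose and 2 fell. Under that centring 17.3% of 3011 genes, each by its brightest probe, rose and 53.1% fell. A share over all probes was not computed for it. Under quantile normalization or cyclic loess none of the 8 passed by limma (1 and 1 at an unadjusted p under 0.05). Under either of these methods 0% of all 5544 probes passed (804 and 178 at an unadjusted p under 0.05), so the loss is not particular to the 8.

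Used as a scale without subtraction, each bright probe left most other probes with a falling slope, from 85.6% with VIM to 93.3% with LDHA. At 0.1 µg the 75th percentile of all signals was 1813, beside a 1st percentile of 1329, so most divided probes were near the background there. Counts after subtraction are given below, and the part of background in these shares was not tested. After division of every array by GAPDH probe 842, 5020 of the other 5543 probes had a falling slope and 5 a rising one, with a median slope of -0.72. With LDHA probe 1453 the counts were 5172 falling and 0 rising, with ACTB probe 5221 4993 and 0, and with VIM probe 1147 4746 and 368 (limma, adjusted over all other probes). With the mean of these 4 probes on the log2 scale, 90.5% of 5540 other probes fell and 0.181% rose, which is 5012 and 10 probes. The median of the array itself gave 1713 falls and 1880 rises among 5544.

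The dim probes gave another picture under the same gene name. GAPDH probe 3922 gave 2230 falls and 1189 rises, and ACTB probe 2756 gave 2222 and 1188. LDHA probe 2752 gave 4 falls and 3107 rises, and LDHA probe 5217 gave 1 and 3700. With LDHA the direction of most calls thus turned with the probe used. LDHA probes 2752 and 5217 each lay within 1.5 times the background on 6 of 7 arrays, so there the divisor was close to the background. Where the 1st percentile was subtracted first, falls numbered 2985 with GAPDH probe 842, 3812 with LDHA probe 1453, 3722 with ACTB probe 5221 and 2908 with VIM probe 1147, with 0 rises for each by limma. They numbered 562 with GAPDH probe 3922 and 448 with ACTB probe 2756, with 25 and 3 rises. LDHA probe 2752 gave 81 falls and 2135 rises, and LDHA probe 5217 gave 3 and 1983. These counts share the same 7 arrays and follow the slope of the dividing probe.

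**Figure D5:**
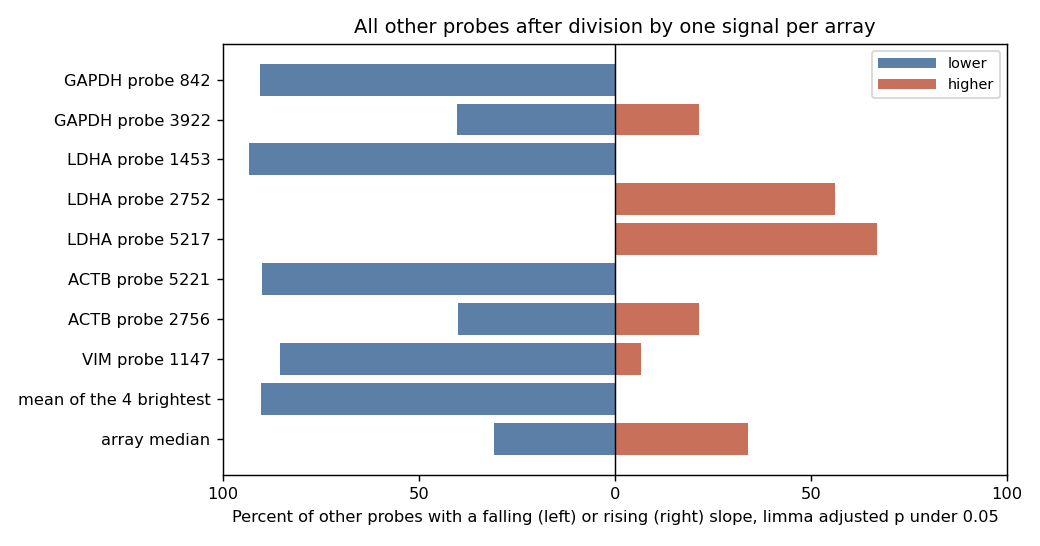
Percent of the other probes with a falling slope (bars to the left) or a rising slope (bars to the right) after the signals of each array were divided by the probe named on the vertical axis, by the mean of the 4 brightest probes on the log2 scale or by the array median; limma, adjusted p under 0.05, 7 arrays. LDHA probe 1453 leaves 93.3% of probes falling and 0% rising, and LDHA probe 5217 leaves 66.8% rising. LDHA probe 5217 lay within 1.5 times the background on 6 of 7 arrays. At 0.1 µg the 75th percentile of all signals was 1813, beside a 1st percentile of 1329.

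The nearest genes in pattern were found by the root mean square difference of median-centred log2 profiles over the 7 arrays, with each of 3011 genes represented by its brightest probe. Nearest to GAPDH were DHRS7, a short-chain dehydrogenase, NSRP1, a splicing regulator, and LPGAT1, an acyltransferase, at 0.12, 0.13 and 0.13, and nearest to LDHA were COTL1, an actin-binding protein, ELF1, an ETS-family transcription factor, and MIA3, which helps collagen leave the endoplasmic reticulum, at 0.10, 0.15 and 0.16. P2RX4, a purinergic receptor, HDAC3, a histone deacetylase, and DNAJB4, a co-chaperone, were nearest to ACTB at 0.18, 0.18 and 0.19, and ITLN1, a lectin, SORL1, a sorting receptor, and RAB9A, a small GTPase, to VIM at 0.12, 0.13 and 0.13. The reference genes were not each other's nearest. From GAPDH, LDHA was 120th of 3010 genes (0.29), ACTB 227th (0.38) and VIM 254th (0.41), and from LDHA, VIM was 305th (0.64). The median difference from GAPDH to all genes was 1.52.

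Other genes of the same pathways were read from lists chosen with earlier results of these data known. After centring on the array median, rises made up 38.5% and falls 26.6% of all 3011 genes, with a median slope of 0.05. In glycolysis and lactate metabolism 6 of 23 listed genes were measured, and 6 rose and 0 fell (limma), with a median slope of 0.28. They include ENO2, an enolase, at 0.74 ± 0.06, LDHC, the testis subunit of lactate dehydrogenase, at 0.29 ± 0.05, and PFKP, a phosphofructokinase, at 0.33 ± 0.07. Centred on the 75th percentile 1 of the 6 rose and 0 fell, beside 17.3% and 53.1% of all genes. Among other common reference genes 6 of 21 were measured and 5 rose, with POLR2A, the largest subunit of RNA polymerase II, at 0.74 ± 0.05, ALAS1, an enzyme of haem synthesis, at 0.62 ± 0.06, and GUSB, a lysosomal glucuronidase, at 0.81 ± 0.07. With the 75th percentile 3 of these 6 rose and 0 fell. The measured glycolysis genes had a median percentile of signal of 78.3 at 10 µg, and the other reference genes 87.9. That of all genes was 55.3, and the part of brightness in these counts was not tested.

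The structural relatives of ACTB and VIM held rises, falls and many probes that did not pass. Of 34 actin and actin-binding genes 12 were measured, of which 4 rose and 2 fell with a median slope of 0.03 (1 and 7 with the 75th percentile). ARPC5, a subunit of the Arp2/3 complex, stood at 0.53 ± 0.06, CAPZA2, a capping protein, at 0.34 ± 0.05, and ARPC1B, a further Arp2/3 subunit, at 0.17 ± 0.05. Of 19 intermediate filament and lamin genes 8 were measured, of which 1 rose and 0 fell with a median slope of -0.04 (1 and 6 with the 75th percentile). The 1 that rose was KRT19, a bile duct keratin, at 0.38 ± 0.05, while GFAP, the astrocyte filament protein (0.12 ± 0.05, limma adjusted p = 0.0768), and LMNA, lamin A/C (0.05 ± 0.05, limma adjusted p = 0.384), did not pass. At 10 µg the 8 probes of this list read from 4655 to 78489, at a median percentile of 44.7, beside 53.0 for the actin list. Under quantile normalization and under cyclic loess none of the 32 measured genes of the 4 lists passed by limma, with 7 and 2 at an unadjusted p under 0.05, and none of all 3011 genes did, with 437 and 114.

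Markers of cells in which vimentin is usually found were measured for few genes. Among 7 stellate cell and fibroblast markers 2 were measured, COL1A2, a collagen chain, at 1161392 and LUM, lumican, at 28833 on the array of 10 µg. Of 5 endothelial markers 3 were measured, with signals from 8200 to 740309, and of 5 macrophage markers 3, from 8515 to 146171. Of 5 lymphocyte markers 2 were measured, at 37323 and 60234. In RNA from whole liver, fewer cells of a type and less RNA per cell cannot be told apart, and the part of these cells in the VIM signal was not tested.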

How the data were processed

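Total RNA of woodchuck liver was measured on 7 human membrane arrays. The authors deposited 1 intensity per spot, linear in scale as the values themselves show. Scanner, background correction and scaling by the authors are not given in the sources used here. Intensities were whole and positive, and array medians differed, so no scaling or subtraction was seen.

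Probes were named from the platform annotation, in which 3346 probes had 1 symbol, 95 several and 2103 none, and the 8 single-symbol probes of ACTB, GAPDH, LDHA and VIM were kept. Members and gene lists were chosen with earlier results of these data known. Named beside them were the 3 genes of highest mean signal in each list and the 3 nearest in pattern to each member gene. Sequences of probes were not used here.

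Log2 intensities were fitted against log2 amount over all 5544 probes with limma 3.58.1 in R 4.3.3 (empirical Bayes, Benjamini-Hochberg at 0.05). The fit was made without scaling, after subtraction of each array's 1st percentile (floor 50), after median centring, against a slope of 1 and on 392 same-symbol pairs. At the floor were 65 to 221 probes per array. Descriptions used Python 3.11.15, numpy 2.4.6, pandas 2.3.3 and matplotlib 3.10.9. The fits were tested on simulated data. Alternatives were left-out arrays, a variance trend, other backgrounds, floors and scalings, a filter on dim probes and an exact permutation test.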

Additional observations from a re-analysis of the deposited data

How the results depend on the processing

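Without scaling, 8 reference probes rose, 7 to 8 with 1 array left out, 7 without 5 and 10 µg, 8 with a variance trend and with exact permutation, and 6 without the dimmest 25% of probes, a filter that kept 6 of the 8. Slopes above 1 numbered 3 as reported, 2 to 3 with 1 array left out and 1 without 5 and 10 µg. Slopes below 1 numbered 4 and ran from 2 to 4 with 1 array left out. After subtraction of the 1st percentile, 0 slopes were above 1 by limma (4 at an unadjusted p under 0.05), but 4 with a variance trend, 4 with the lowest signal subtracted and 2 with a floor of 200. Slopes below 1 then numbered 0 (limma, 2 unadjusted), 2 with the lowest signal, 1 with a floor of 200 and 0 to 1 with 1 array left out. Of the 5 same-gene pairs, 2 passed after subtraction, 0 to 2 with 1 array left out, 0 without 5 and 10 µg (limma, 2 unadjusted), 1 with the 5th percentile, 4 with the lowest signal and 1 with a floor of 1. The 4 passes without subtraction stayed at 4 in all settings run. Shares of all probes or pairs called in these alternative settings were not computed. Median-centred rises numbered 4, and 0 with quantile normalization (limma, 0 unadjusted) or cyclic loess (limma, 1 unadjusted), where the slope of GAPDH probe 842 turned to -0.034 and -0.043 and did not pass; no probe of all 5544 passed under either method. Falls numbered 2, 1 to 2 with 1 array left out, 1 without 5 and 10 µg, and 0 with quantile normalization or cyclic loess (limma, 1 and 0 unadjusted). Scaled to the mean of the 4 genes, rises over all probes numbered 10, 0 to 60 with 1 array left out, 136 without 5 and 10 µg, 28 with a variance trend and 0 after subtraction (limma, 0 unadjusted), while falls stayed between 3476 and 5058. The cause of these shifts was not tested. The 2 dim LDHA probes lay within 1.5 times the background on 6 of 7 arrays, which limits their slopes and ratios. No paired analysis was possible because each amount had 1 array.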
